A study of Bos taurus with 8 samples.

Results

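The 10 genes described here encode enzymes that attach coenzyme A to acetate, propionate and butyrate in the bovine rumen, or that take the next steps on butyryl-CoA and propionyl-CoA. They were chosen by symbol in the deposited gene count table, 10 of its 33132 genes: ACSS1, ACSS2, ACSS3, ACSM1, ACSM3, ACSM5, ACADS, PCCA, PCCB and MCEE. Rumen tissue from 4 newborn male calves was compared with that from 4 adult male steers, which are castrated, in a study of how the rumen grows after birth. All 8 animals were angus crosses, each gave 1 library, and no treatment or genetic change is recorded for either group. Age and castration differ together between the groups and cannot be told apart, and the labels name no diet or batch.

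The rumen is the fermentation chamber of the ruminant stomach, where microbes turn plant fibre into acetate, propionate and butyrate that are absorbed through a stratified squamous epithelium. Before a cell can use one of these acids, an acyl-CoA synthetase joins it to coenzyme A at the cost of ATP. Acetyl-CoA then feeds the citric acid cycle or fat synthesis, butyryl-CoA enters beta-oxidation and ketone body formation, and propionyl-CoA is carboxylated, turned over by an epimerase and rearranged to succinyl-CoA. In newborn calves milk bypasses the rumen, and fermentation there starts later, as solid feed is eaten.

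Library totals were 42322022 to 54449684 counts, and the first principal component, with 54.4% of the variance, separated calves from steers. Levels are given as CPM, counts divided by the library size in units of 1000000, after scaling of that size by the trimmed mean of M-values (TMM). Markers of the tissue's cell types differed between libraries. The summed level of 10 smooth muscle markers was 6376 to 18591 CPM in calves and 10944 to 109320 CPM in steers, and of 9 tested, 4 were higher and 1 lower in steers. Squamous epithelium markers, with 1 of 9 tested higher in steers, summed to 15024 to 21520 CPM in calves and 12789 to 19426 CPM in steers, so the labelled tissue showed its epithelium in every library; DSG3, whose span lies wholly inside other genes, was at 0 throughout. Of 7 tested adipocyte markers 2 were lower in steers, and their 8-gene sum was 114 to 672 CPM in calves and 254 to 575 CPM in steers. All 6 fibroblast markers were tested, 3 were lower in steers, and they summed to 1625 to 4738 CPM in calves and 566 to 1350 CPM in steers. Of 6 tested leukocyte markers 3 were higher and 1 lower in steers, with sums over 8 markers of 52.5 to 101 CPM in calves and 25.1 to 78.1 CPM in steers. Endothelial markers, 1 of 6 lower in steers, summed to 226 to 489 CPM in calves and 170 to 249 CPM in steers, and markers of enteric neurons and glia, 1 of 5 lower, to 18.7 to 26.9 and 10.4 to 21.8 CPM. Hepatocyte markers summed to at most 3.37 CPM in any library. Bulk tissue cannot tell fewer cells of a type from less RNA per cell.

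Of the 10 genes, 9 passed the filter on low counts and were tested among 16326 genes with edgeR's quasi-likelihood test, where a Benjamini-Hochberg adjusted p under 0.05 over all genes made a call. In steers 6 were higher (ACSS1, ACSS2, ACADS, PCCA, PCCB and MCEE) and 2 were lower (ACSS3 and ACSM1). ACSM3 was not called and ACSM5 was too low to test. Over all tested genes 16.9% were called, 7.70% as higher and 9.16% as lower in steers. No overlap between calves and steers was seen for 7 of the 9 (5 higher and 2 lower in steers), against 23.3% of all tested genes, 10.5% higher and 12.8% lower. Their median log2 change, steer minus calf, was 1.09, and that of all tested genes was 0.04. The 3 highest changes were those of ACADS, PCCA and ACSS1.

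**Figure D1:**
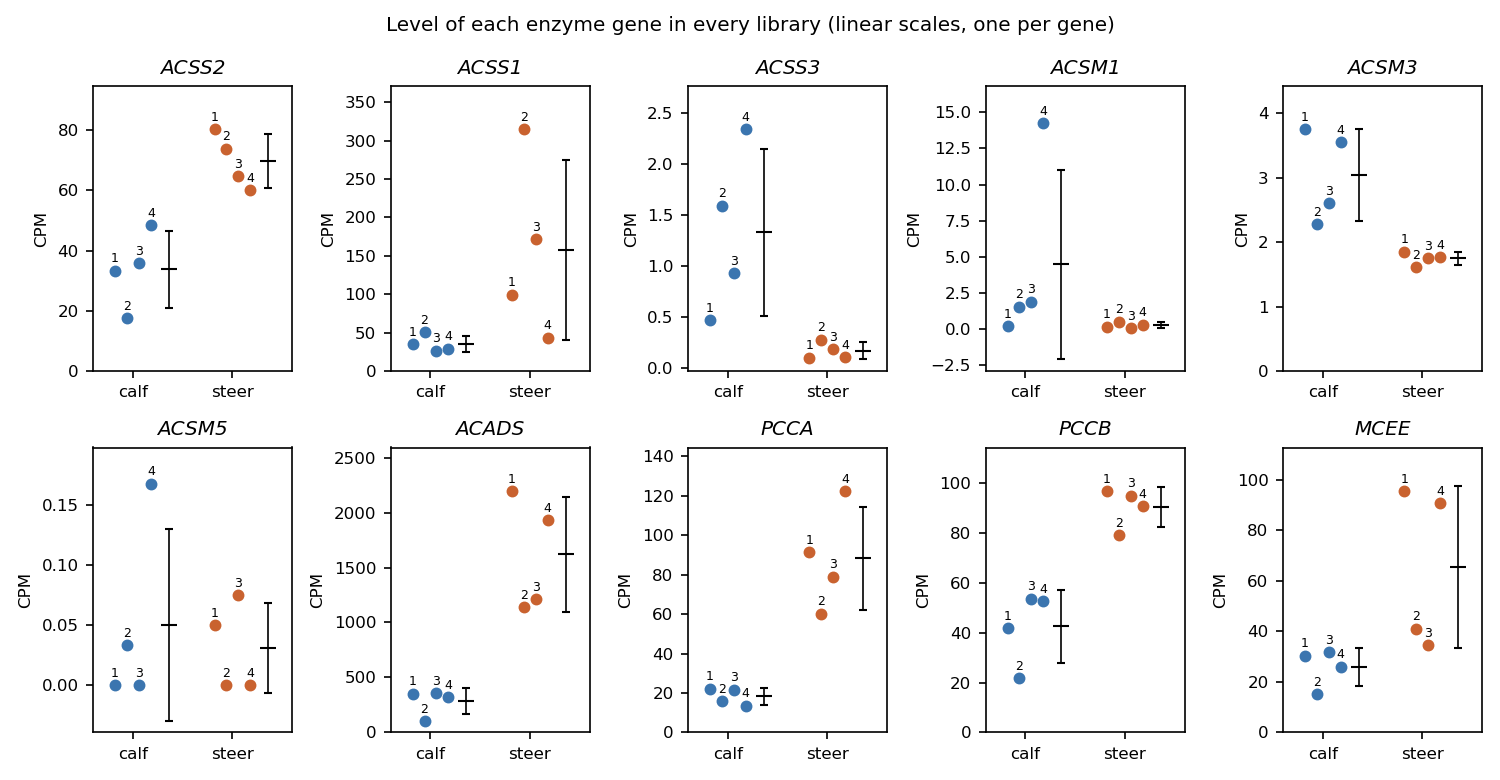
CPM of each of the 10 genes in every library, on a linear axis of its own for each gene; numbered points are calves (blue) and steers (orange), and black marks with whiskers are group means ± SD (n = 4), some of which reach below 0. ACADS, PCCA, PCCB, ACSS2 and MCEE lie higher in all 4 steers, ACSS3 and ACSM3 lie higher in all 4 calves, and the ACSM1 mean of the calves rests on calf 4 at 14.3 CPM.

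Acetate can be activated in the cytosol or in the mitochondrion. ACSS2 encodes the acetyl-CoA synthetase of cytosol and nucleus, and its span is at 64186750 to 64233570 on chromosome 13, plus strand. It measured 33.3, 17.4, 35.7 and 48.4 CPM in calves 1 to 4 and 80.2, 73.9, 64.8 and 60.2 CPM in steers 1 to 4. Every steer was above every calf, and the steers lay close together. The mean went from 33.7 ± 12.7 CPM in calves to 69.8 ± 9.01 CPM in steers (SD, n = 4 each), 2.07 times the calf level. The fitted log2 change was 1.05 ± 0.29 (SE; edgeR adjusted p = 0.0322). The call was lost on leaving out calf 1, calf 3, steer 1, steer 2 or steer 3, with log2 changes of 0.99 to 1.09 and adjusted p of 0.0569 to 0.0799.

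ACSS1 encodes the mitochondrial acetyl-CoA synthetase, at 42621435 to 42666448 on the minus strand of chromosome 13. Its level was 34.5, 50.6, 26.3 and 29.0 CPM in calves 1 to 4, and steers 1 to 4 had 99.1, 314.5, 171.7 and 43.2 CPM. The steers spread widely, with the highest 7.27 times the lowest, and steer 4 lay below calf 2, so the groups overlapped. Means were 35.1 ± 10.9 CPM in calves and 157 ± 117 CPM in steers, a log2 change of 2.16 ± 0.53 (edgeR adjusted p = 0.0211). Leaving out calf 1, calf 3 or calf 4 gave log2 changes of 2.04 to 2.16 and adjusted p of 0.0583 to 0.0618, which ended the call, and without steer 2 the log2 change was 1.59. The coefficient of variation was 74.7% in steers and 30.9% in calves.

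The steers highest and lowest for ACSS1 were also those highest and lowest for the smooth muscle markers. Their summed level was 56450, 109320, 51986 and 10944 CPM in steers 1 to 4, so steer 2 was highest and steer 4 lowest in both, with steers 1 and 3 in between in the opposite order. In calves 1 to 4 the sum was 18591, 14092, 6376 and 13750 CPM. With the mean log2 level of these markers as a covariate, the ACSS1 log2 change was 0.83 (edgeR adjusted p = 0.0946), no longer called. With the squamous epithelium markers as the covariate it was 1.26 (adjusted p = 0.0121). The part of the muscle layer in the ACSS1 difference was not tested beyond these 2 fits. ACSS2 with the smooth muscle covariate had a log2 change of 1.02 (adjusted p = 0.0799), close in size to that without it.

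**Figure D2:**
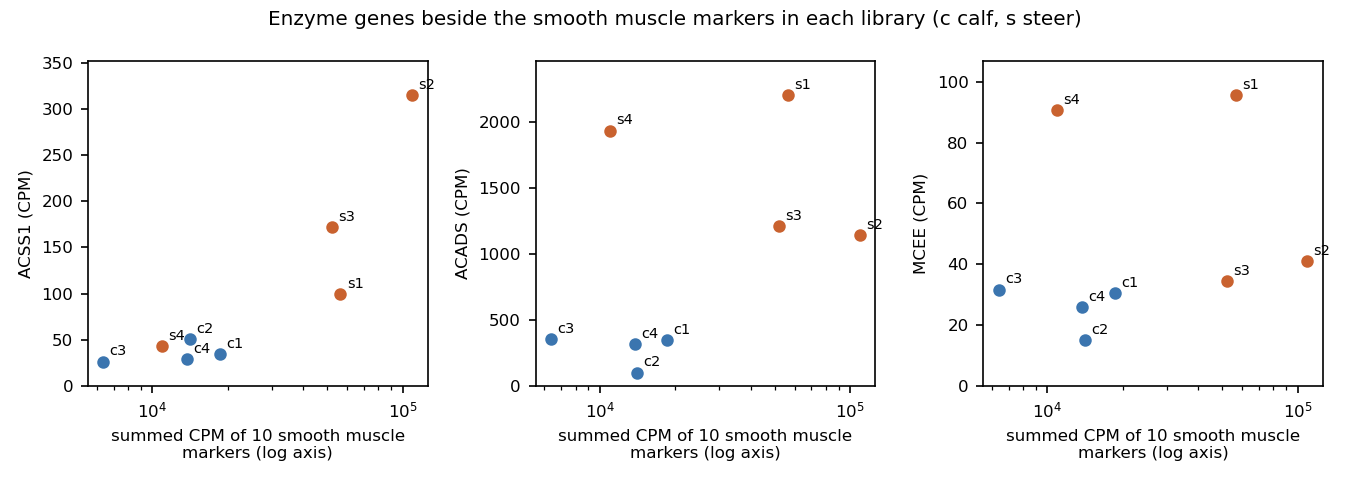
ACSS1, ACADS and MCEE in CPM (linear axis from 0) against the summed CPM of 10 smooth muscle markers (log axis) in each library, with calves in blue (c) and steers in orange (s). Steer 2 is highest in both for ACSS1 (314.5 CPM) and steer 4 lowest of the steers in both (43.2 CPM), whereas ACADS was 1935 CPM in steer 4 and 1141 CPM in steer 2.

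A shift in the balance between ACSS2 and ACSS1 was not called, and its size depended on the libraries used. The log2 ratio of ACSS2 to ACSS1, on the log2(CPM + 0.1) scale, was -0.10 ± 1.01 in calves and -0.83 ± 1.14 in steers (SD, n = 4 each). The difference of -0.73 had p = 0.314 in a two-sided exact permutation test, and 0.314 after Benjamini-Hochberg adjustment over 5 such ratios. As a ratio of CPM it was 0.966, 0.345, 1.36 and 1.67 in calves 1 to 4 and 0.809, 0.235, 0.377 and 1.39 in steers 1 to 4, below 1 in 5 libraries and above 1 in 3. With 1 library left out the log2 difference ran from -1.21 to -0.31. Without calf 2 and steer 4 together it was -1.64 (exact permutation test, adjusted p = 0.125), where 3 against 3 animals allow no p below 0.1.

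Propionate activation was represented by ACSS3, a mitochondrial synthetase that prefers propionate. It lies at 10671613 to 10856551 on the plus strand of chromosome 5, with 4.79% of its span shared with PPFIA2. Calves 1 to 4 had 20, 95, 44 and 112 counts, or 0.466, 1.59, 0.926 and 2.34 CPM. Steers 1 to 4 had 4, 10, 10 and 6 counts, or 0.10, 0.278, 0.186 and 0.105 CPM. Each mate of a pair was counted, so low counts here and in the genes below stand for fewer sequenced fragments. The gene was scarce in both groups, and all calves were above all steers. The mean was 1.33 ± 0.82 CPM in calves and fell to 0.167 ± 0.084 CPM in steers (log2 change -2.99 ± 0.63, edgeR adjusted p = 0.0114). Leaving out any single library kept the call. Without calves 2 and 4 together the log2 change was -2.05 (adjusted p = 0.148), and without steers 2 and 4 together it was -3.15 (adjusted p = 0.0518).

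Calves 2 and 4, the highest for ACSS3, were also the highest of all libraries for 5 of the 8 adipocyte markers: ADIPOQ, PLIN1, CIDEC, LEP and LIPE. ADIPOQ, which encodes the fat hormone adiponectin, was 0.0932, 41.7, 1.35 and 45.9 CPM in calves 1 to 4 and 0.245 to 0.445 CPM in steers. PLIN1, which encodes a coat protein of fat droplets, was 2.54, 28.8, 3.45 and 25.4 CPM in calves and 2.65 to 4.86 CPM in steers. The remaining 3 markers had another order. FABP4, a fatty acid binding protein, was highest in steer 1 at 430 CPM, with calf 4 at 394 CPM and calf 2 at 57.1 CPM. PLIN4 was highest in steer 2 at 174 CPM, and CIDEA was highest in calf 3 at 128 CPM and lowest in calf 2 at 13.9 CPM. The part of fat cells in the ACSS3 difference was not tested.

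The genes moved in opposite directions within the acetyl-CoA synthetase family, and the test of that shift missed the threshold after adjustment. The log2 ratio of ACSS3 to ACSS1 was -4.78 ± 0.97 in calves and -8.90 ± 0.84 in steers, with no overlap. The difference of -4.13 had p = 0.0286 in the exact two-sided permutation test, the smallest that 4 against 4 animals allow, and 0.0714 adjusted over 5 ratios. It depends on the constant added to the low ACSS3 levels: the difference was -3.20 with 0.5 CPM and -4.66 with 0.01 CPM in place of 0.1. Without calf 1 the difference was -4.51 and its adjusted p was 0.0476, and leaving out any other library gave adjusted p of 0.0714 to 0.143.

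Members of the ACSM family of mitochondrial matrix synthetases activate butyrate and medium-chain acids. The genes that the count table names as of this family sit in 1 cluster on chromosome 25. There ACSM5, ACSM2B, ACSM1, ACSM4 and ACSM3 lie in that order, all on the plus strand, between 18091203 and 18540167. All were scarce in the rumen tissue, unlike ACSF2, an acyl-CoA synthetase outside this family. With 42.9% of its span shared, ACSF2 measured 648 ± 303 CPM in calves and 774 ± 299 CPM in steers. It was not called (log2 change 0.26 ± 0.44, edgeR adjusted p = 0.738). ACSM2B had 20 counts in all calves together and 6 in all steers, and ACSM4 had 74 and 96 (log2 change 0.65 ± 1.03, edgeR adjusted p = 0.718).

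ACSM1 encodes a synthetase with activity towards butyrate, at 18233709 to 18298234. Calves 1 to 4 had 8, 92, 90 and 682 counts, or 0.186, 1.54, 1.89 and 14.3 CPM. Steers 1 to 4 had 6, 18, 2 and 16 counts, or 0.150, 0.501, 0.0373 and 0.281 CPM. Calf 4 stood far above the rest, while calf 1 lay below steers 2 and 4, so the groups overlapped. Means were 4.47 ± 6.57 CPM in calves and 0.242 ± 0.199 CPM in steers, and the gene was called lower in steers with a log2 change of -4.22 ± 1.22 (edgeR adjusted p = 0.0416). Without calf 4 the log2 change was -2.32 (adjusted p = 0.143). Leaving out calf 3 or any 1 of the 4 steers also ended the call, with log2 changes of -4.80 to -3.84 and adjusted p of 0.0530 to 0.0972. Limma-voom gave -3.31 (adjusted p = 0.181), and the call held in 8 of the 21 alternatives that tested the gene. Of the 8 adipocyte markers, calf 4 had the highest level of all libraries for ADIPOQ, CIDEC, LEP and LIPE, and other libraries were higher for PLIN1, FABP4, PLIN4 and CIDEA. The part of fat cells in the ACSM1 level was not tested.

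ACSM3 encodes another medium-chain synthetase, at 18483688 to 18540167. It measured 3.75, 2.28, 2.61 and 3.56 CPM in calves 1 to 4 and 1.85, 1.61, 1.75 and 1.77 CPM in steers 1 to 4. Every calf was above every steer, and the steers were nearly level. Means were 3.05 ± 0.72 and 1.75 ± 0.098 CPM, and the log2 change of -0.80 ± 0.30 missed the threshold (edgeR adjusted p = 0.0981). DESeq2 called it, with an adjusted p of 0.0258.

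ACSM5, a further medium-chain synthetase at 18091203 to 18119703, was close to undetected. Calves 1 to 4 had 0, 2, 0 and 8 counts and steers 1 to 4 had 2, 0, 4 and 0. The group totals of 10 and 6 counts are under a floor of 3 counts in each library, so no fold is given. The log2 ratio of ACSM1 to ACSM3 was -0.69 ± 2.35 in calves and -2.63 ± 0.95 in steers, with overlap. Its difference of -1.94 had p = 0.171 in the exact two-sided permutation test and 0.214 adjusted. With 1 library left out it ran from -2.96 (without calf 1, adjusted p = 0.0476) to -1.06 (without calf 4, adjusted p = 0.393), and the adjusted p was 0.171 or more in all but the first.

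Downstream of activation, ACADS was the most abundant of the genes. It encodes short-chain acyl-CoA dehydrogenase, which carries out the first oxidation of butyryl-CoA, and lies at 62969238 to 62985757 on the plus strand of chromosome 17. Calves 1 to 4 had 348.4, 100.7, 357.0 and 317.4 CPM and steers 1 to 4 had 2200, 1141, 1212 and 1935 CPM. The lowest steer was above the highest calf by a wide margin, and calf 2 was well below the other calves. The mean rose from 281 ± 121 to 1622 ± 527 CPM, 5.77 times, with a log2 change of 2.53 ± 0.44 (edgeR adjusted p = 0.00459). Its share of a library's counts was 0.0128% to 0.0371% in calves and 0.0969% to 0.203% in steers, and its rank by count among all genes went from between 316 and 1338 in calves to between 59 and 134 in steers. The call held in all 22 alternatives run, with log2 changes of 2.15 to 2.91.

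Propionyl-CoA carboxylase is built from an alpha subunit that carries biotin, encoded by PCCA, and a beta subunit that holds the carboxyl transferase, encoded by PCCB. PCCA lies at 76812738 to 77174973 on the plus strand of chromosome 12, the longest span of the 10 genes. In turn, calves 1 to 4 had 22.2, 15.7, 21.7 and 13.6 CPM and steers 1 to 4 had 91.5, 60.2, 79.0 and 122.4 CPM. All steers were far above all calves. The mean rose from 18.3 ± 4.29 to 88.3 ± 26.1 CPM, 4.83 times, with a log2 change of 2.27 ± 0.27 and the lowest adjusted p of the 9 genes (edgeR adjusted p = 0.000758). This call too held in all 22 alternatives, with log2 changes of 2.01 to 2.57.

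PCCB lies at 132929059 to 133024300 on the minus strand of chromosome 1. It measured 41.9, 21.8, 53.7 and 52.7 CPM in calves 1 to 4 and 96.9, 79.2, 95.0 and 90.8 CPM in steers 1 to 4. The groups were apart, and the steers were close to each other. The mean rose from 42.5 ± 14.8 to 90.5 ± 7.93 CPM, a log2 change of 1.09 ± 0.28 (edgeR adjusted p = 0.0239). Without calf 1 it was 1.10 (adjusted p = 0.0643) and without steer 3 it was 1.07 (adjusted p = 0.0564).

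The ratio of the carboxylase subunit transcripts differed between the groups without overlap. Per library the ratio of PCCA to PCCB in CPM was 0.529, 0.723, 0.403 and 0.257 in calves 1 to 4 and 0.944, 0.760, 0.832 and 1.35 in steers 1 to 4. Every steer lay above every calf, though steer 2 was only slightly above calf 2. As log2 ratios the means were -1.16 ± 0.63 and -0.08 ± 0.36, a difference of 1.08 (two-sided exact permutation p = 0.0286, adjusted p = 0.0714 over 5 ratios). The unadjusted p was the smallest that 4 against 4 animals allow, so the adjusted value also depended on the p of the other ratios. The shift did not pass after adjustment. With 1 library left out the adjusted p was 0.0714 to 0.143 in 7 of 8 cases and 0.0476 without calf 1 (difference 1.16). These are ratios of counts over spans of unequal length and give no stoichiometry.

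MCEE encodes methylmalonyl-CoA epimerase, which converts the carboxylase product to the form that the mutase accepts, and lies at 27388184 to 27396222 on the minus strand of chromosome 21. Calves 1 to 4 had 30.4, 15.1, 31.7 and 26.0 CPM and steers 1 to 4 had 95.5, 41.1, 34.4 and 90.6 CPM. Steers 1 and 4 were high, and steer 3 was only just above calf 3. The mean went from 25.8 ± 7.53 to 65.4 ± 32.1 CPM, a log2 change of 1.34 ± 0.38 (edgeR adjusted p = 0.0378). Leaving out any 1 calf, steer 1 or steer 4 ended the call, with log2 changes of 1.11 to 1.45 and adjusted p of 0.0604 to 0.0861. With the smooth muscle covariate its log2 change was 1.73 (adjusted p = 0.0159). The log2 ratio of MCEE to PCCA was 0.47 ± 0.41 in calves and -0.53 ± 0.52 in steers, a difference of -1.0 with overlap (exact permutation p = 0.0571, adjusted p = 0.0952).

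**Figure D3:**
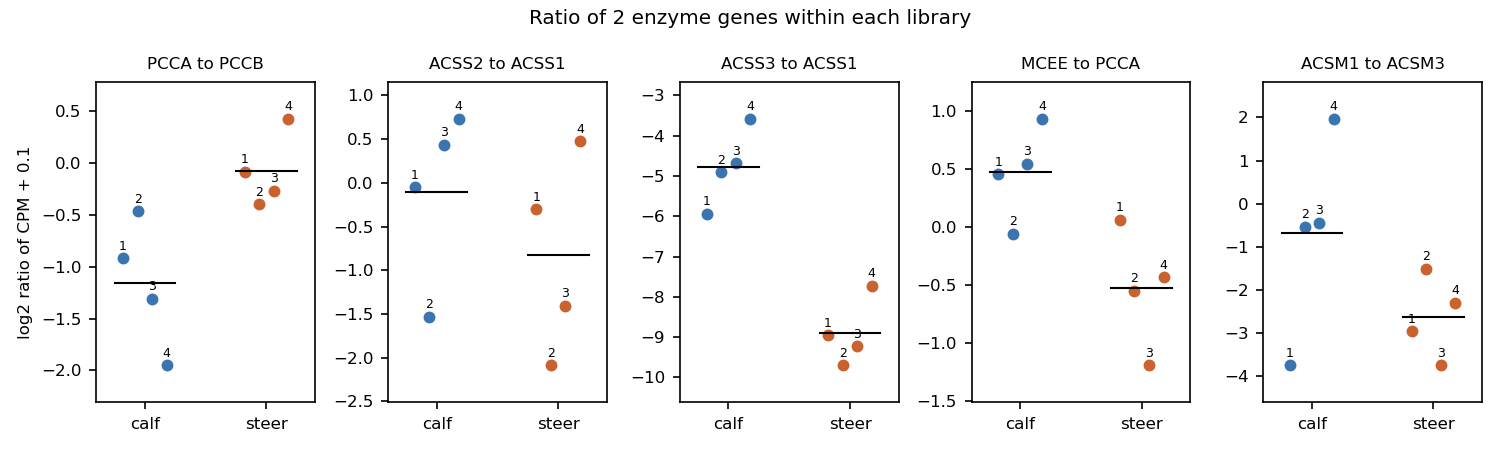
Log2 ratio of CPM + 0.1 for 5 gene pairs in each library, with numbered points for calves (blue) and steers (orange) and lines at the group means. The PCCA to PCCB and ACSS3 to ACSS1 ratios do not overlap between the groups, and none of the 5 differences passed after adjustment (adjusted p from 0.0714 to 0.314).

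Among the calves, calf 2 was the lowest for 5 of the 9 tested genes (ACSS2, ACSM3, ACADS, PCCB and MCEE) and the highest for ACSS1. With library size alone as the scaling it was the lowest for 4, ACSM3 no longer among them. Its squamous epithelium markers were also the lowest of the calves on the TMM scale, at 15024 CPM against 18497 to 21520 CPM. The TMM factor, by which the library size is multiplied, was 1.27 in calf 2 and 0.922 to 1.04 in the other calves. A larger factor lowers every CPM of a library, and the marker sums were not taken with library size alone. Among the steers, steer 2 was the lowest for ACSM3, ACADS, PCCA and PCCB and the highest for ACSS1, ACSS3 and ACSM1. With library size alone steer 2 was the lowest for 6, ACSS2 and MCEE added. Steer 1 was the highest of the steers for 5 of the 9 with TMM and for 0 with library size alone. The part of tissue makeup in these differences within a group was not tested. Without calf 2 and steer 4 together, ACSS1, ACSS2, ACADS, PCCA and PCCB were still called higher and ACSS3 lower, while MCEE (log2 change 0.96, edgeR adjusted p = 0.110) and ACSM1 (-4.62, adjusted p = 0.0595) were not.

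**Figure D4:**
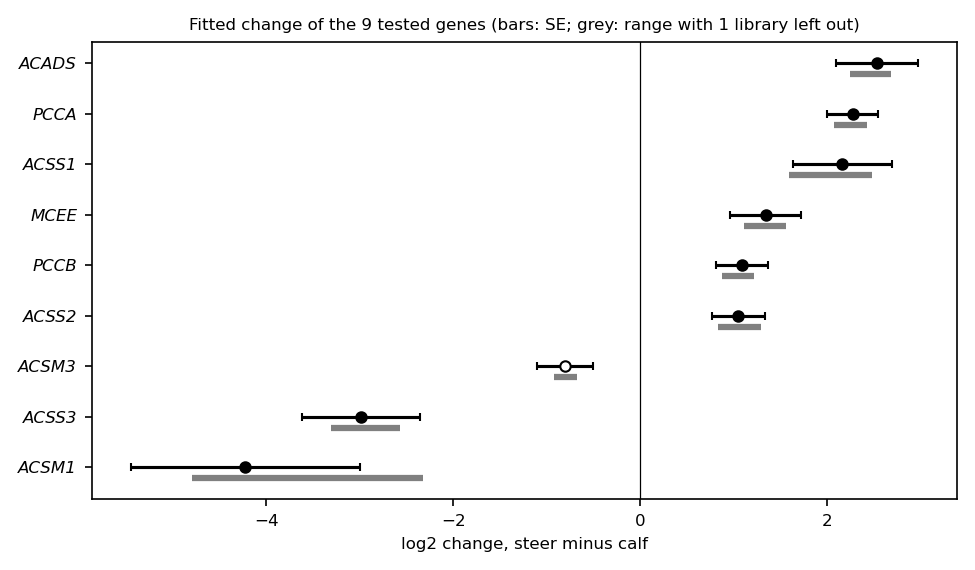
Fitted log2 change, steer minus calf, of the 9 tested genes, with bars for the SE, filled points for genes with an adjusted p under 0.05 and grey lines for the range with 1 library left out. ACSM1 at -4.22 has the widest grey line, and ACADS at 2.53 and PCCA at 2.27 lie far from 0 in every fit.

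To set the genes beside each other, CPM was divided by the length of the counted span, which includes introns and so makes long genes look low. On this scale of CPM per kb, ACADS led in both groups, at 17.0 in calves and 98.2 in steers. MCEE followed at 3.21 and 8.14, ACSS1 at 0.780 and 3.49, ACSS2 at 0.720 and 1.49, and PCCB at 0.446 and 0.950. In calves ACSM1 (0.0693), ACSM3 (0.0540) and PCCA (0.0505) came next, each overlapping its neighbour in that order. In steers PCCA (0.244) stood clear of ACSM3 (0.0309), and ACSM1 was at 0.00375, overlapping ACSM5. ACSS3, at 0.00720 in calves and 0.000905 in steers, and ACSM5, at 0.00176 and 0.00109, were last in both groups and overlapped. ACSS1 and ACSS2 overlapped in both groups, as did ACSS2 and PCCB in calves and MCEE and ACSS1 in steers.

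The last step from propionyl-CoA to succinyl-CoA, that of methylmalonyl-CoA mutase, was read within a list of 15 tested genes. The others were genes of cobalamin supply and use, and of succinyl-CoA ligase, which acts on succinyl-CoA itself. Of these 6 were higher in steers, 0 were lower and 9 were not called. Among all tested genes the higher share was 7.70% and the lower share 9.16%. The list's median log2 change was 0.57, against 0.04 over all tested genes. At an unadjusted p under 0.05 edgeR gave 8 higher and 0 lower, and DESeq2 and limma-voom each called 6 higher and 0 lower. SUCLG2, the beta subunit of the GTP-specific succinyl-CoA ligase, rose from 64.1 ± 10.9 to 226.5 ± 26.5 CPM (log2 change 1.82 ± 0.20, edgeR adjusted p = 0.000485). CD320, the cell surface receptor for cobalamin bound to transcobalamin, rose from 38.3 ± 8.53 to 88.0 ± 34.3 CPM (1.20 ± 0.29, adjusted p = 0.0191), but without calf 1 its adjusted p was 0.0603. MTR, methionine synthase, the other enzyme that uses cobalamin, rose from 8.01 ± 2.39 to 21.4 ± 8.83 CPM (1.4 ± 0.32, adjusted p = 0.0144).

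The remaining called genes of that list were the mutase itself and genes of cobalamin handling, named here after their values were seen. MUT, the methylmalonyl-CoA mutase gene, went from 45.0 ± 3.74 to 84.4 ± 29.5 CPM, a log2 change of 0.91 ± 0.24 (edgeR adjusted p = 0.0294). Its call was lost on leaving out any 1 calf or steer 3, with adjusted p of 0.0508 to 0.0783. MMAA had a log2 change of 1.03 (adjusted p = 0.0225; 0.0554 without calf 3) and MMACHC one of 1.02 (adjusted p = 0.0108). With library size as the only scaling 3 genes of the list were called higher, since MUT, MTR and MMACHC then had adjusted p of 0.10, 0.0622 and 0.0522. Without calf 2 and steer 4 it was 5, without calves 2 and 4 it was 1 and without steers 2 and 4 it was 3.

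PCCA needs biotin, and the other biotin carboxylases and their supply had genes called in both directions. Of 8 tested genes 1 was higher and 2 were lower in steers, where 7.70% and 9.16% of all tested genes were. Whether these small counts differ from those shares was not tested. The list's median log2 change was -0.40, against 0.04 over all tested genes. At an unadjusted p under 0.05 edgeR gave 3 higher and 4 lower, DESeq2 called 2 and 4, and limma-voom 1 and 2. MCCC1, the biotin-bearing subunit of methylcrotonyl-CoA carboxylase in leucine breakdown, rose from 27.6 ± 2.72 to 46.0 ± 3.08 CPM (log2 change 0.74 ± 0.16, edgeR adjusted p = 0.0139). It was not called with library size as the only scaling (adjusted p = 0.0890) or with the replicate block (adjusted p = 0.0555). The MCCC1 call was also lost without calves 2 and 4 and without steers 2 and 4, and held in 18 of the 22 alternatives. ACACA, acetyl-CoA carboxylase of fatty acid synthesis, fell from 78.4 ± 11.9 to 33.4 ± 1.78 CPM (-1.23 ± 0.18, adjusted p = 0.00190). SLC5A6, a transporter of biotin and pantothenate, fell from 51.9 ± 8.25 to 21.2 ± 6.32 CPM (-1.29 ± 0.25, adjusted p = 0.00719).

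The other enzymes of mitochondrial beta-oxidation and its electron transfer, the pathway that ACADS belongs to, had 9 of 14 tested genes higher in steers, 0 lower and 5 not called. That is 64.3% higher, where 7.70% of all tested genes were, and the median log2 change was 1.15. At an unadjusted p under 0.05 edgeR gave 10 higher and 0 lower, DESeq2 called 10 higher and 0 lower, and limma-voom 9 and 0. ACAT1, the mitochondrial acetoacetyl-CoA thiolase, rose from 67.5 ± 11.9 to 305.6 ± 82.2 CPM (log2 change 2.18 ± 0.26, edgeR adjusted p = 0.000717). ETFA, a subunit of the flavoprotein that takes electrons from acyl-CoA dehydrogenases, rose from 57.5 ± 14 to 181.3 ± 50.4 CPM (1.66 ± 0.27, adjusted p = 0.00348). HADH, the short-chain hydroxyacyl-CoA dehydrogenase, rose from 353 ± 115 to 1083 ± 291 CPM (1.62 ± 0.33, adjusted p = 0.0103). The count was 7 without calf 2 and steer 4, 4 without calves 2 and 4 and 6 without steers 2 and 4.

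Breakdown of branched-chain amino acids also yields propionyl-CoA and acetyl-CoA. In steers 6 of its 16 tested genes were higher, 0 lower and 10 not called (median log2 change 0.85). The higher share was 37.5%, against 7.70% of all tested genes. At an unadjusted p under 0.05 edgeR gave 7 higher and 1 lower, DESeq2 called 7 and 1, and limma-voom 7 and 0. ACADSB, the dehydrogenase of short branched acyl-CoA, rose from 109 ± 24.2 to 372 ± 88.6 CPM (log2 change 1.77 ± 0.26, edgeR adjusted p = 0.00212). HIBCH, a hydrolase of valine breakdown with 25% of its span shared, rose from 18 ± 3.97 to 38 ± 4.98 CPM (1.08 ± 0.21, adjusted p = 0.00820). Without steer 2, 1 gene of this list was called lower. The count of higher genes was 6 without calf 2 and steer 4, 2 without calves 2 and 4 and 5 without steers 2 and 4.

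Of 17 tested genes of other acyl-CoA synthetases 3 were higher in steers, 2 were lower and 12 were not called, with a median log2 change of 0.06. That is 17.6% higher and 11.8% lower, where 7.70% and 9.16% of all tested genes were. SLC27A2, a very long-chain synthetase and fatty acid transport protein, measured 0, 0.0669, 0.0421 and 0.418 CPM in calves 1 to 4 and 6.47, 2.78, 3.93 and 11.4 CPM in steers 1 to 4. It was near 0 in every calf and well above that in every steer, a log2 change of 5.51 ± 0.97 (edgeR adjusted p = 0.00497). Without calf 4 the other calves had 0, 4 and 2 counts, under the floor of 3 counts in each library, so no fold is given without it. ACSF3, the mitochondrial malonyl-CoA synthetase, rose from 20.8 ± 4.17 to 52.4 ± 16.2 CPM (1.34 ± 0.26, adjusted p = 0.00816). ACSL6, a long-chain synthetase named after its values were seen, rose from 0.196 ± 0.0695 to 0.831 ± 0.150 CPM (2.08 ± 0.46, adjusted p = 0.0137). AACS, which activates acetoacetate in the cytosol, fell from 25.5 ± 2.27 to 6.96 ± 1.54 CPM (-1.87 ± 0.22, adjusted p = 0.000668). SLC27A3, another transport protein of that family, fell from 38.3 ± 12.5 to 16.4 ± 3.47 CPM (-1.23 ± 0.27, adjusted p = 0.0145), a call lost with the smooth muscle covariate (adjusted p = 0.0532). Without calves 2 and 4 the counts were 1 higher and 2 lower, without steers 2 and 4 they were 2 and 1, and DESeq2 called 3 higher and 4 lower.

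Enzymes that remove coenzyme A or move acetyl groups were listed with sirtuins, of which SIRT1 and SIRT5 were tested and SIRT3 was not. Of 15 tested genes 4 were higher in steers, 1 was lower and 10 were not called (median log2 change 0.41). These are 26.7% and 6.67%, against 7.70% higher and 9.16% lower among all tested genes. ACOT2, a mitochondrial thioesterase, rose from 26.2 ± 9.78 to 157.5 ± 40 CPM (log2 change 2.59 ± 0.31, edgeR adjusted p = 0.000813). CRAT, carnitine acetyltransferase, rose from 50.7 ± 12.6 to 136.3 ± 51.7 CPM (1.43 ± 0.30, adjusted p = 0.0113), and ACOT13, another thioesterase, from 13.1 ± 1.46 to 24.9 ± 2.96 CPM (0.93 ± 0.18, adjusted p = 0.00847). MLYCD, malonyl-CoA decarboxylase, named after its values were seen, had a log2 change of 0.76 ± 0.18 (adjusted p = 0.0178; 0.0619 without calf 1). ACOT7, a cytosolic thioesterase, fell from 15.7 ± 3.99 to 7.26 ± 1.35 CPM (-1.11 ± 0.25, adjusted p = 0.0152), a call lost with the smooth muscle covariate (adjusted p = 0.0570). Without steer 4, 2 genes of this list were called lower, and without calves 2 and 4 the counts were 1 higher and 0 lower.

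**Figure D5:**
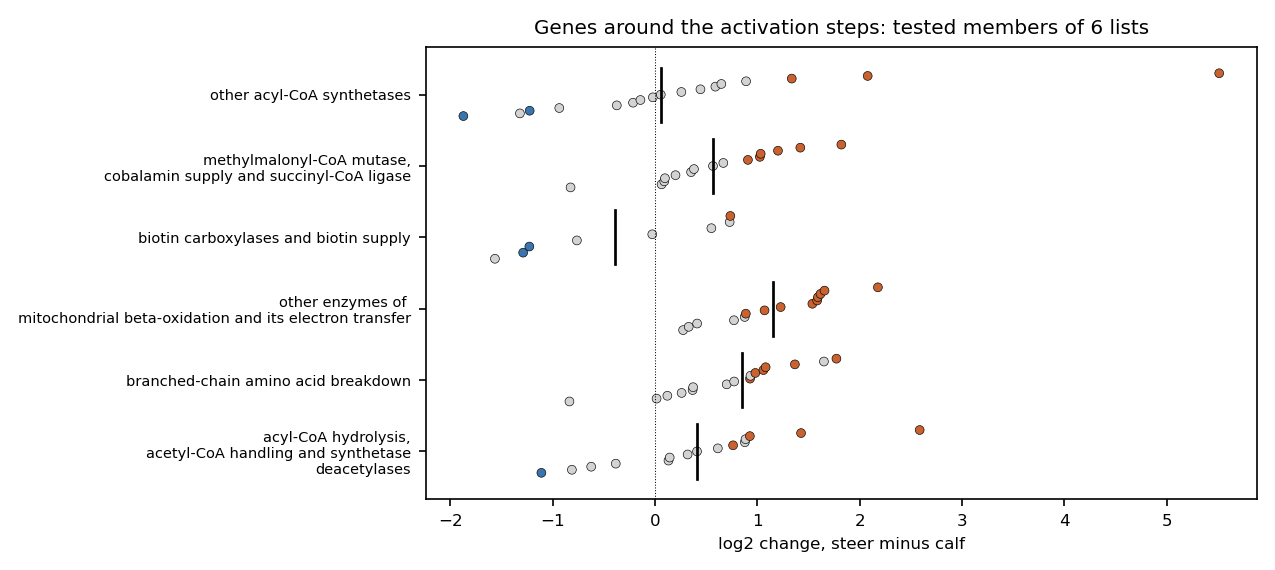
Log2 change, steer minus calf, of every tested gene in 6 lists around the activation steps, coloured where the adjusted p was under 0.05 (orange higher, blue lower in steers, grey not called), with a black line at each list's median. The medians run from -0.40 for the biotin list to 1.15 for beta-oxidation.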

How the data were processed

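Total RNA of rumen tissue was sequenced as paired-end libraries made with dUTP in the second strand, per the labels' protocols. The submitters' processing notes name Trimmomatic 0.39, STAR 2.7.11a, featureCounts 2.0.2 and DESeq2 1.42.0. The deposited values are raw, whole-number counts per gene name. Per the file headers, the authors' featureCounts run covered transcript spans, introns included, joined by gene name. It used no strand option, counted each mate of a pair (86.9% to 89.0% of counts from 1 to 10 were even) and left out reads lying in several genes. ECHS1 and SIRT3, wholly inside other spans, could therefore not be measured. Positions are those of the count table, 1-based, and neither labels, notes nor file header name its genome build. Chromosome numbers come from symbols matched to a RefSeq table of ARS-UCD2.0 (27621 symbols, 83.4%).

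Counts were tested in edgeR 4.0.16 under R 4.3.3 (filterByExpr, a minimum count of 10, TMM scaling, robust quasi-likelihood F test), steer minus calf, over 16326 genes with Benjamini-Hochberg adjustment; the SE was taken as the log2 change over the root of its F statistic. The procedure was tested on simulated data. The common biological coefficient of variation was 41.8%. The 5 ratios, on log2(CPM + 0.1), had two-sided exact permutation tests over 70 assignments. No 2 libraries of a group agreed within sampling noise (smallest chi-square per degree of freedom 112.5). Alternatives were 3 scalings, 2 filters, no robust dispersion, the replicate block, 2 marker covariates, DESeq2 1.42.0, limma-voom 3.58.1 and libraries left out.

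The members and lists were chosen with earlier results of these data known. Named genes were the 10 members, up to 3 called genes per list and direction by log2 change with at least 1 CPM in the higher group, and 5 named after their values were seen (MUT, MMAA, MMACHC, ACSL6 and MLYCD). The other ACSM genes were named for their position and ACSF2 for its level. A gene that this rule named is not reported here, though it counts in its list.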

Additional observations from a re-analysis of the deposited data

Results flagged for a closer look

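Each value here lay apart from the other 3 animals of its group by more than Dixon's 95% critical value for the gap over the range. Over 76 groups checked, chance gives such a value in about 1 in 20. Among the 10 genes, ACSM1 in calf 4 was 14.3 CPM where the other calves had 0.186 to 1.89 CPM, and ACADS in calf 2 was 100.7 CPM where the other calves had 317 to 357 CPM. MTR in calf 2 was high, at 11.6 CPM against 6.62 to 7.20 CPM. MTR in steer 4 was 34.6 CPM against 16.3 to 17.9 CPM. SLC27A2 in calf 4 was 0.418 CPM against 0 to 0.0669 CPM. SLC27A3 in steer 1 was 21.5 CPM against 13.9 to 15.1 CPM. MUT in calf 4 was 39.4 CPM against 46.5 to 47.1 CPM.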

How the results depend on the processing

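Over 22 alternatives to the fit and 14 to each ratio, no ratio difference and no log2 change of the 33 genes followed changed sign. These were the tested members and the named genes of the lists, without ACSF2 and the other ACSM genes. ACADS and PCCA kept their calls in all 22. Of all tested genes 1257 were called higher and 1495 lower in steers. The higher count was 835 with library size only, 1944 with DESeq2 and 385 without calves 2 and 4, where the lower count was 763. With 1 library left out the higher count was 705 (without calf 1) to 1473 and the lower 1029 to 1784; without calf 4, 804 were higher. Library size only moved the median log2 change of all genes by -0.11, from 0.04 to -0.07, and 34.9% of calls were then higher against 45.7%. Of the 10 genes, 6 were called higher and 2 lower. Leaving out 1 library left 2 to 5 higher (2 without calf 1, 3 without calf 3) and 1 to 2 lower. Without calves 2 and 4, or steers 2 and 4, 3 were higher and 0 lower; these 2 alternatives were chosen after seeing the data. With a filter of 1 CPM in 4 libraries 0 were called lower, since ACSS3 and ACSM1 were not tested. Limma-voom, either marker covariate, and leaving out calf 2 and steer 4 each left 1 lower, ACSS3. The cause of the other shifts was not tested. The log2 ratio differences with 1 library left out were 0.82 to 1.31 for PCCA to PCCB, -1.21 to -0.31 for ACSS2 to ACSS1, -4.52 to -3.73 for ACSS3 to ACSS1, -1.20 to -0.78 for MCEE to PCCA and -2.96 to -1.06 for ACSM1 to ACSM3; with 3 against 4 animals the smallest p is 0.0286.

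Calves and steers share label numbers, but same-numbered animals did not deviate together (correlations of -0.27 to 0.20 over 4 pairs), and 1 of 4 calves correlated best with the steer of its own number. With the replicate block 785 genes were higher and 1046 lower, with 5 of the 10 genes higher and 1 lower. ACSS2 and ACSM1 were the ones lost, with adjusted p of 0.0640 and 0.0968. Of the other named genes, the block ended the calls of 5 (MCCC1, ACOT7, MUT, ACSL6 and MLYCD), and library size only those of 5 (MTR, MCCC1, ACOT13, MUT and MMACHC). Low counts limit ACSS3, ACSM1 and ACSM5 most.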
